A study of Mus musculus with 6 samples.

Results

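Chemokines are small secreted proteins that guide migrating cells, and 33 of their genes were measured among 18193 genes in sorted populations of mouse hair follicle cells. They were taken by name, as every gene whose platform symbol was Ccl or Cxcl followed by a number, or Cx3cl1 or Xcl1, with the paralog letter of Ccl27a allowed. The naming rule itself used no measured value, but the members were chosen with earlier results of these data known. The 33 genes had 51 probe sets annotated to one gene alone, and each gene was read through the probe set with the highest mean on the log2 scale over 6 arrays. A further 4 probe sets shared a chemokine symbol with other genes and were left out.

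The study profiled the hair follicle lineage of female CD-1 mice, in back skin, on Affymetrix arrays, with 2 arrays per population, and belonged to a survey of chromatin states. Transient-amplifying cells of the matrix (HF-TAC), the dividing progeny that build the hair and its inner sheaths, came from a sort on ephrinB1, integrin α6 and GFP at postnatal days 28 to 30. Activated stem cells of the follicle (aHF-SC), of the same ages, came from a sort on CD34, integrin α6 and GFP. Quiescent stem cells (qHF-SC) came from a sort on CD34 and integrin α6, with GFP not listed, at postnatal days 52 to 60. All animals were untreated. What carried the GFP, which side of each marker was collected and how many animals were pooled is not in the labels. Cell state, age and sorting scheme change together against qHF-SC, and cell state and sorting scheme change together between HF-TAC and aHF-SC; their parts cannot be told apart. No label says that the 2 arrays of a group came from separate animals, so p-values measure the spread between arrays, which may be technical.

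Chemokines bind receptors of the G protein-coupled kind on leukocytes and other cells, and are named for the spacing of the first cysteines of the protein: CC, CXC, CX3C and XC. Some are made steadily in resting tissue and place cells in their niches, such as Cxcl12 and, in epithelia, Cxcl14. Others are induced by NF-kB or interferon signalling during inflammation. Epithelial cells of the skin and its follicles are a known source, and chemokines of the mouse follicle guide precursors of Langerhans cells, the dendritic cells of the epidermis.

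The array medians lay between 22.79 and 23.9 intensity units over all probe sets. A gene was called dim in a group where both arrays lay below their own median, since no detection calls were used. The summed level of 9 matrix markers was 8022 and 15934 in HF-TAC, against 1315 and 1530 in aHF-SC and 809 and 616 in qHF-SC. That of 8 basal and bulge markers was 29470 and 24280 in HF-TAC, against 63658 and 75625 in aHF-SC and 72957 and 70918 in qHF-SC. The matrix marker sums were thus highest in HF-TAC, and the basal and bulge sums were higher in both stem cell groups. The basal and bulge sums overlapped between aHF-SC and qHF-SC, so they do not tell these apart. That list also includes Cd34 and Itga6, which encode sorting markers, so it is not independent of the sorting. HF-TAC also had high levels of 9 upper follicle and sebaceous gland markers, with sums of 80279 and 48051, against 15067 and 14093 in aHF-SC and 9472 and 9054 in qHF-SC. Of these 9, 6 (66.7%) were higher in HF-TAC than in aHF-SC, beside 8.97% of all genes, and 7 (77.8%) than in qHF-SC, beside 13.4%. Among them Krt79, a keratin of the upper follicle duct, read 11194 and 6644 in HF-TAC, against 399 and 241 in aHF-SC and 257 and 307 in qHF-SC. Differentiated keratinocyte markers moved as well: their sum was 36337 and 24311 in HF-TAC, against 20304 and 23515 in aHF-SC and 36296 and 37788 in qHF-SC. Of these 8, 4 were higher and 1 lower in HF-TAC than in aHF-SC, 1 was higher and 1 lower against qHF-SC, and 3 were lower in aHF-SC against qHF-SC. The calls were 62.5%, 25% and 37.5% of the list, beside 17.5%, 26.3% and 6.28% of all genes.

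Of 18 immune cell markers, 8 to 12 lay below the array median on each array, and the others above it. Limma called 1 higher (Kit, a receptor of mast cells and melanocytes, 9.79-fold) and 1 lower (Thy1, 9.66-fold) in HF-TAC than in aHF-SC. Against qHF-SC, HF-TAC had 1 higher (Kit) and 3 lower (Thy1, Cd68 and Cd3g), and aHF-SC had 1 lower (Cd68). These calls were 11.1%, 22.2% and 5.56% of the list, below the 17.5%, 26.3% and 6.28% of all genes. Cd68, a macrophage protein of lysosomes, read 17.4 and 24.2 in HF-TAC, against 18.6 and 28.01 in aHF-SC and 58.4 and 63.5 in qHF-SC. Ptprc, the pan-leukocyte antigen CD45, which was picked after its values were seen, read between 7.93 and 9.26 on every array. The part of these marker levels in the chemokine values was not tested.

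HF-TAC had less transcript of Cxcl14, Cxcl12 and Ccl27a than either stem cell population, by 3.001-fold to 8.92-fold, and more of Cxcl10, Ccl2 and Ccl20, by 1.82-fold to 7.30-fold. Differences were tested with limma on log2 intensities of all 6 arrays, with p-values adjusted over 18193 genes and a threshold of 0.05. In HF-TAC against aHF-SC, 4 of 33 chemokine genes were higher, beside 8.97% of all genes, and 3 lower, beside 8.57%; together they were 21.2% of the members, beside 17.5% of all genes. In HF-TAC against qHF-SC, 4 were higher, beside 13.4% of all genes, and 4 lower, beside 12.9%; together they were 24.2%, beside 26.3%. In aHF-SC against qHF-SC, 1 was higher (3.03% of members), beside 3.07% of all genes, and 0 were lower, beside 3.21%, with 6.28% of all genes called and 4 members at an unadjusted p under 0.05. The shares of chemokine genes that changed thus stood near those of all genes. The median log2 difference of the 33 genes was -0.0059, 0.0151 and -0.0052 in the 3 comparisons, beside -0.0121, -0.0089 and 0.0048 over all genes. In all, 9 members changed in at least 1 comparison. The share of all genes that did so was not counted, so this number cannot be read as high or low. With 2 arrays a group, separation of the arrays alone is common: HF-TAC lay wholly above aHF-SC for 26.4% and wholly below for 27.9% of all genes. These shares were 30% and 31.2% for HF-TAC against qHF-SC, and 25.7% and 25.1% for aHF-SC against qHF-SC. The comparisons share arrays, so calls in HF-TAC against the 2 stem cell groups are not independent of each other.

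**Figure D1:**
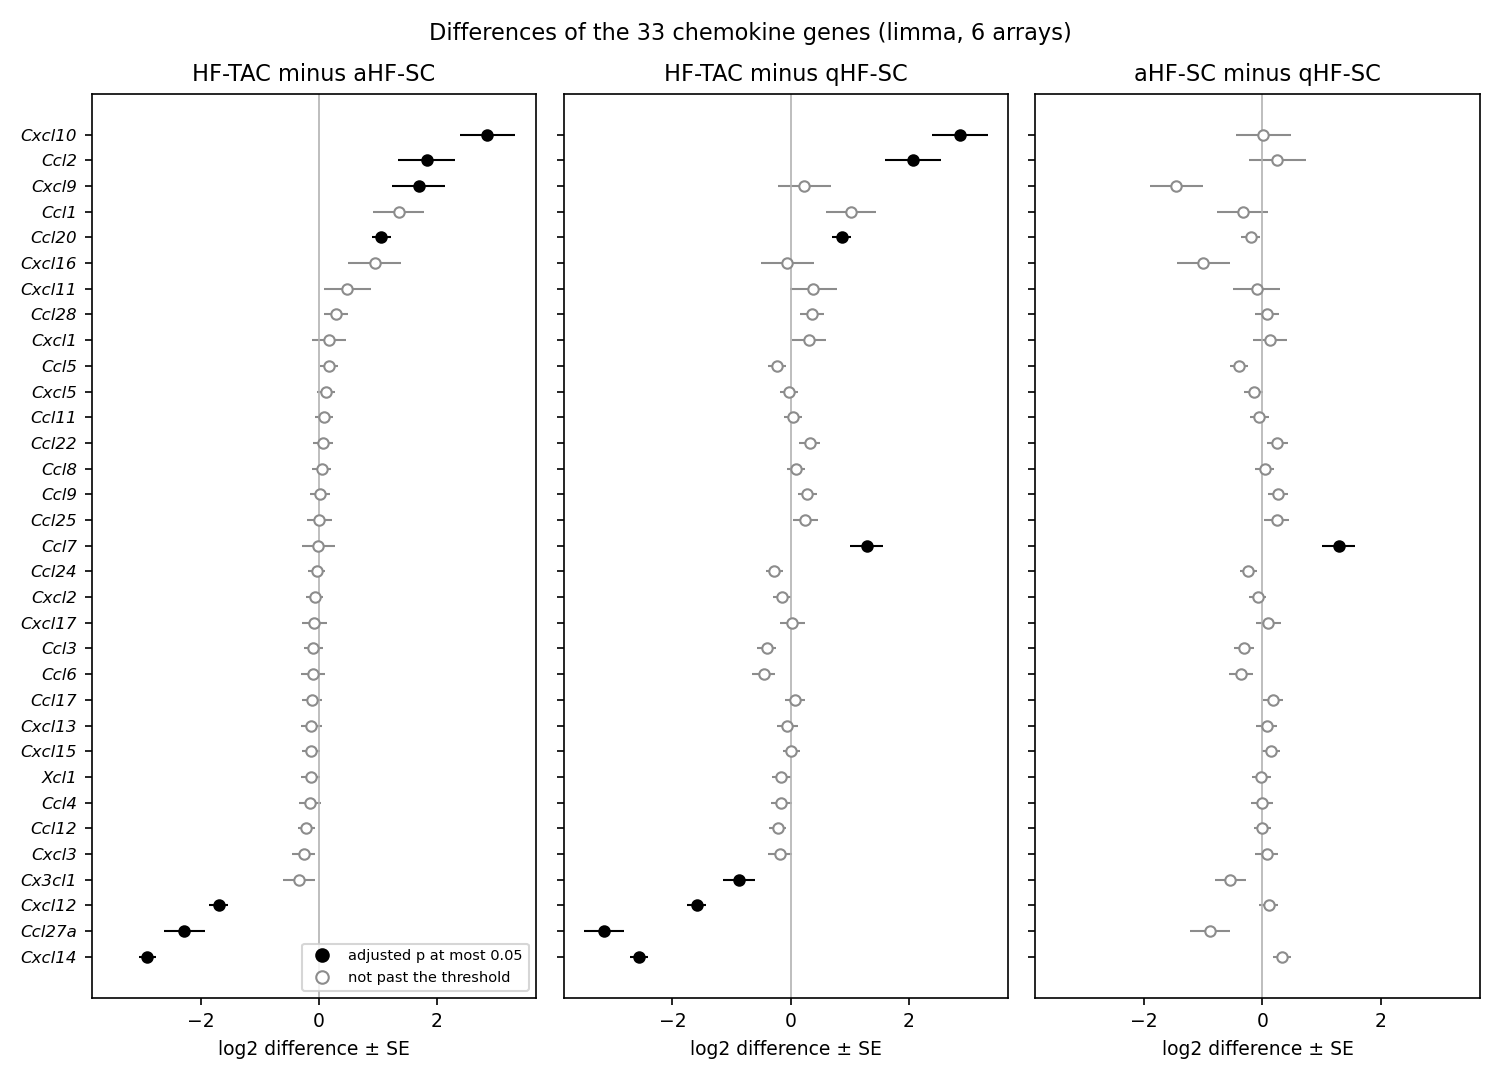
Log2 differences of the 33 chemokine genes (rows, in the order of the left panel) in HF-TAC minus aHF-SC, HF-TAC minus qHF-SC and aHF-SC minus qHF-SC, with bars for the standard error (SE) from the limma fit. Filled points passed an adjusted p of 0.05; most members lie near 0, Cxcl10 stands highest in both HF-TAC panels, and Cxcl14 or Ccl27a stands lowest in them.

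**Figure D2:**
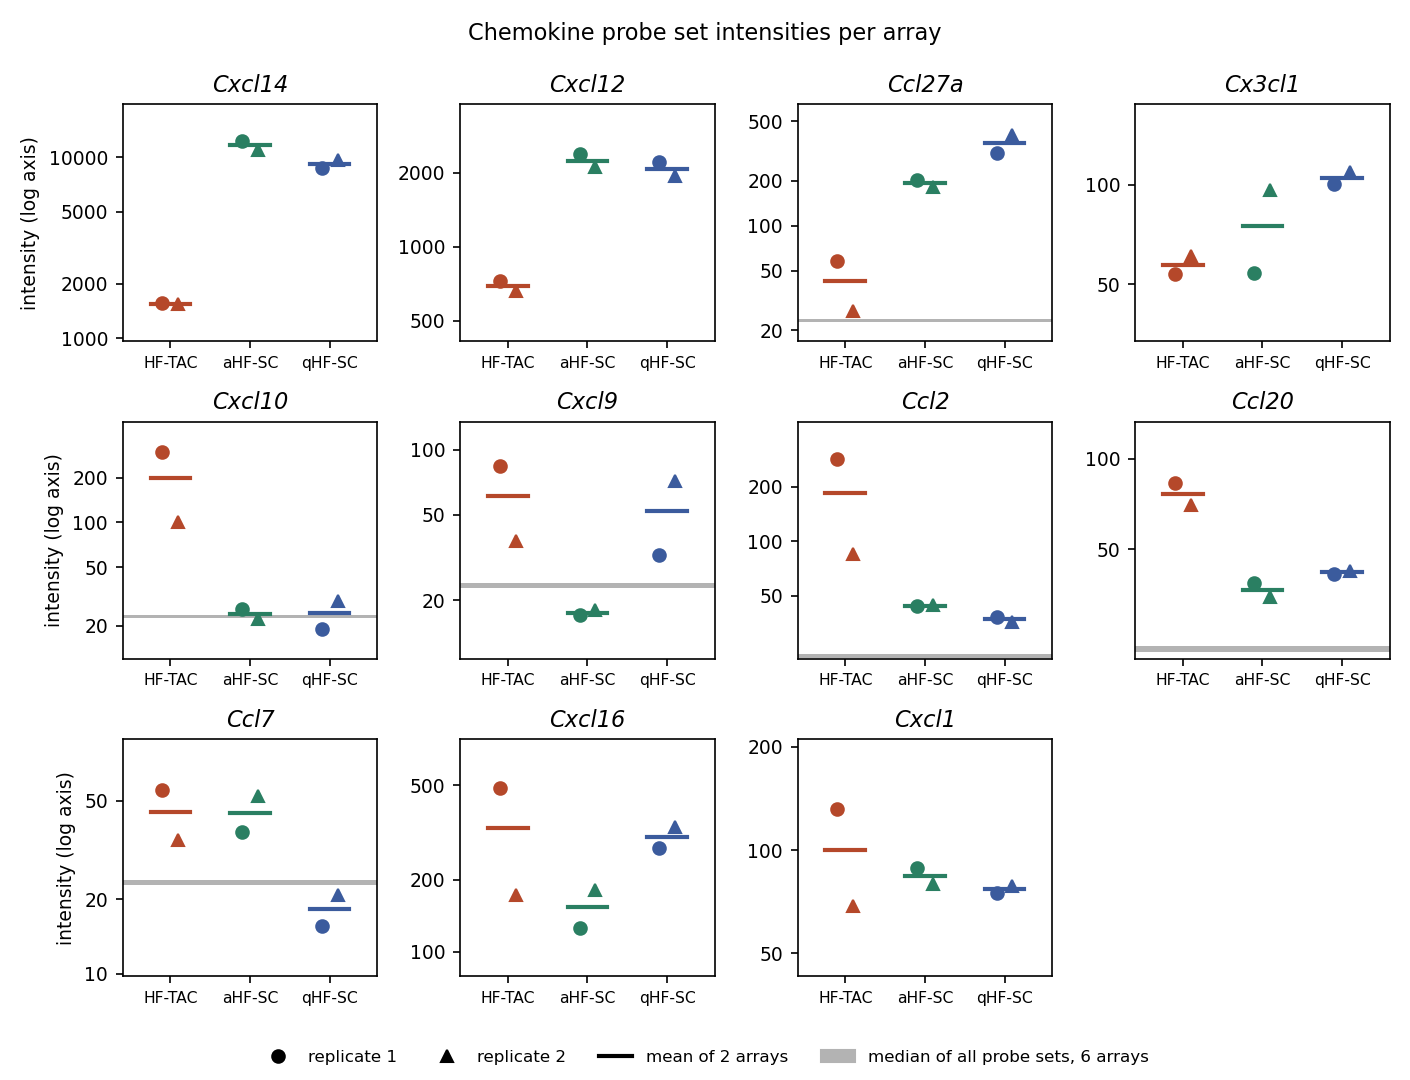
Intensity (log axis, a separate scale for each gene) of the 11 chemokine genes described one by one, in HF-TAC, aHF-SC and qHF-SC. Circles are replicate 1, triangles replicate 2, lines the mean of 2 arrays and the grey band the range of array medians; Cxcl14 and Cxcl12 have close replicates, while Ccl2 and Cxcl10 lie about 3-fold apart between the HF-TAC arrays.

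Among the chemokines known from resting tissue, Cxcl14, which is made constitutively by skin epithelium, had an intensity of 1567 and 1540 in HF-TAC, against 12222 and 10987 in aHF-SC and 8756 and 9630 in qHF-SC. The HF-TAC arrays lay far below all others, and the aHF-SC arrays both lay above the qHF-SC arrays. Cxcl14 was 7.46-fold lower in HF-TAC than in aHF-SC (log2 difference -2.90 ± 0.15 SE, limma adjusted p = 0.000139) and 5.91-fold lower than in qHF-SC (-2.56 ± 0.15, adjusted p = 7.92e-05). The difference between aHF-SC and qHF-SC, 0.34 ± 0.15 on the log2 scale, did not pass (limma adjusted p = 0.272). These bulk values cannot tell fewer cells that express a gene from less RNA of it per cell. The other Cxcl14 probe set gave log2 differences of -3.45, -2.95 and 0.50 in the same 3 comparisons. Both HF-TAC calls held under all 16 alternative settings.

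Cxcl12, the ligand of Cxcr4 that retains cells in niches such as the bone marrow, had an intensity of 724 and 658 in HF-TAC, against 2374 and 2106 in aHF-SC and 2219 and 1934 in qHF-SC. The HF-TAC arrays again lay apart, and the stem cell groups overlapped. Cxcl12 was 3.24-fold lower in HF-TAC than in aHF-SC (log2 difference -1.70 ± 0.16 SE, limma adjusted p = 0.000867) and 3.001-fold lower than in qHF-SC (-1.59 ± 0.16, adjusted p = 0.000525). In aHF-SC against qHF-SC its log2 difference was 0.11 ± 0.16 (limma adjusted p = 0.795). Of its 3 probe sets, one stayed between 11.98 and 13.8 on every array and showed no such difference (log2 differences 0.04 and -0.04), and the third gave -1.40 and -0.88. With the mean of the 3, the differences were smaller, at -1.02 and -0.83, and both calls held under all 16 settings.

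Ccl27a, which draws T cells that carry Ccr10 to the skin, had an intensity of 58.2 and 27.0 in HF-TAC, against 201 and 182 in aHF-SC and 308 and 406 in qHF-SC. No pair of groups overlapped, and the order was HF-TAC below aHF-SC below qHF-SC. Ccl27a was 4.83-fold lower in HF-TAC than in aHF-SC (log2 difference -2.27 ± 0.34 SE, limma adjusted p = 0.00444) and 8.92-fold lower than in qHF-SC (-3.16 ± 0.34, adjusted p = 0.000694). The difference between aHF-SC and qHF-SC, -0.88 ± 0.34, did not pass (limma adjusted p = 0.201). It passed in a fit of these 2 groups alone (adjusted p = 0.0414). The single probe set of Ccl27a is of a type that can cross-hybridise with near copies, so its source is uncertain.

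Cx3cl1, the membrane-bound chemokine fractalkine, had an intensity of 53.7 and 60.9 in HF-TAC, against 54.1 and 96.2 in aHF-SC and 100 and 110 in qHF-SC. HF-TAC overlapped aHF-SC, and both lay below qHF-SC. It was 1.83-fold lower in HF-TAC than in qHF-SC (log2 difference -0.87 ± 0.27 SE), just inside the threshold (limma adjusted p = 0.0485). The call ended without any one of the HF-TAC and qHF-SC arrays (adjusted p = 0.101 to 0.194), with its 4 probe sets averaged (0.112) and with 16 added before the log (0.0874).

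Among the chemokines known as inducible, Cxcl10, an interferon-induced ligand of Cxcr3 on T cells, had an intensity of 299 and 100.9 in HF-TAC, against 26.1 and 22.2 in aHF-SC and 19.2 and 29.5 in qHF-SC. Both HF-TAC arrays lay above all others though 2.97-fold apart, and the stem cell arrays straddled the array medians. Cxcl10 was 7.22-fold higher in HF-TAC than in aHF-SC (log2 difference 2.85 ± 0.47 SE, limma adjusted p = 0.00634) and 7.30-fold higher than in qHF-SC (2.87 ± 0.47, adjusted p = 0.00397). Between aHF-SC and qHF-SC the log2 difference was 0.02 ± 0.47 (limma adjusted p = 0.993). Without HF-TAC replicate 1 the differences fell to 2.07 and 2.08 on the log2 scale, and without replicate 2 they stood at 3.64 and 3.65. Both calls held under all 16 settings.

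Cxcl9, a further ligand of Cxcr3 that interferon gamma induces, had an intensity of 84.6 and 37.9 in HF-TAC, against 17.1 and 17.9 in aHF-SC and 32.4 and 71.5 in qHF-SC. It was dim in aHF-SC, and HF-TAC and qHF-SC overlapped. It was 3.24-fold higher in HF-TAC than in aHF-SC (log2 difference 1.69 ± 0.45 SE, limma adjusted p = 0.0414), with no call against qHF-SC (0.24 ± 0.45, adjusted p = 0.780). The call ended in 6 of 16 settings, namely without HF-TAC replicate 1 (1.11, adjusted p = 0.151), without either aHF-SC array (0.141 and 0.147), with its 2 probe sets averaged (0.67, adjusted p = 0.163), with 16 added before the log (0.137) and in a replicate block (0.0729). Without HF-TAC replicate 2 it was 2.27 (adjusted p = 0.0192). The aHF-SC arrays also lay below the qHF-SC arrays without passing (log2 difference -1.46 ± 0.45 SE, limma adjusted p = 0.116). The other Cxcl9 probe set lay below the array medians, at 9.75 to 14.8. It gave log2 differences of -0.35 in HF-TAC against aHF-SC, 0.09 in HF-TAC against qHF-SC and 0.44 in aHF-SC against qHF-SC. Cxcl11, the remaining Cxcr3 ligand of this kind, was dim in every group.

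Ccl2, a ligand of Ccr2 that recruits monocytes, had an intensity of 286 and 85.1 in HF-TAC, against 43.8 and 44.4 in aHF-SC and 38.4 and 35.9 in qHF-SC. The HF-TAC arrays lay above all others and 3.36-fold apart, the widest gap of any member within that group. Ccl2 was 3.54-fold higher in HF-TAC than in aHF-SC (log2 difference 1.82 ± 0.48 SE, limma adjusted p = 0.0403) and 4.21-fold higher than in qHF-SC (2.07 ± 0.48, adjusted p = 0.0172). The differences were 0.95 and 1.20 without HF-TAC replicate 1, and 2.70 and 2.95 without replicate 2. The call against aHF-SC ended with 16 added before the log (adjusted p = 0.117), in a fit of the 2 groups alone (0.0711) and without either aHF-SC array (0.133 and 0.150). That against qHF-SC ended with 16 added before the log (0.0690) and without either qHF-SC array (0.0733 and 0.0874).

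Ccl20, the ligand of Ccr6 that attracts immature dendritic cells, had an intensity of 82.9 and 70.1 in HF-TAC, against 38.6 and 34.6 in aHF-SC and 41.5 and 42.2 in qHF-SC. Its replicates were close, and the HF-TAC arrays lay above all others. It was 2.09-fold higher in HF-TAC than in aHF-SC (log2 difference 1.06 ± 0.16 SE, limma adjusted p = 0.00447) and 1.82-fold higher than in qHF-SC (0.86 ± 0.16, adjusted p = 0.00671). Both calls held under all 16 settings. Between aHF-SC and qHF-SC the log2 difference was -0.20 ± 0.16 (limma adjusted p = 0.593).

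Ccl7, another monocyte attractant and the neighbour of Ccl2, was the only member called between the stem cell populations. Its intensity was 55.5 and 34.8 in HF-TAC, against 37.3 and 52.2 in aHF-SC and 15.6 and 20.8 in qHF-SC. HF-TAC and aHF-SC overlapped, and qHF-SC lay below both and was dim. Ccl7 was 2.45-fold higher in aHF-SC than in qHF-SC (log2 difference 1.29 ± 0.28 SE, limma adjusted p = 0.0422) and 2.44-fold higher in HF-TAC than in qHF-SC (1.29 ± 0.28, adjusted p = 0.0134). The call in aHF-SC ended with 16 added before the log (0.116), in a replicate block (0.0749) and without any one of the 4 arrays compared (0.0868 to 0.192). That in HF-TAC ended without HF-TAC replicate 1 (0.0543) and without qHF-SC replicate 1 (0.0862).

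Members that did not change include Cxcl16, a membrane-bound ligand of Cxcr6, at an intensity of 489 and 174 in HF-TAC, against 126 and 182 in aHF-SC and 273 and 335 in qHF-SC. HF-TAC overlapped both stem cell groups, and aHF-SC lay below qHF-SC. Its log2 difference in aHF-SC against qHF-SC was -0.998 ± 0.45 SE (limma adjusted p = 0.271), and 0.0480 was reached in a fit of those 2 groups alone. The other Cxcl16 probe set gave -1.24 there, and 1.02 and -0.22 in HF-TAC against aHF-SC and qHF-SC. Cxcl1, a neutrophil attractant, read 131 and 68.7 in HF-TAC, against 88.9 and 79.5 in aHF-SC and 75 and 78.8 in qHF-SC, with no call. The groups overlapped except that aHF-SC lay above qHF-SC. Its 3 probe sets disagreed in size: the log2 difference in HF-TAC against aHF-SC was 0.18 with the one used, and 1.34 and 0.61 with the others. The one used can cross-hybridise. The probe set with 1.34 read 104 and 28.6 in HF-TAC, against 21.4 and 21.8 in aHF-SC and 17.2 and 22.0 in qHF-SC. Without HF-TAC replicate 2, Cxcl16 passed against aHF-SC (log2 difference 1.69, limma adjusted p = 0.0111) and Cxcl1 against qHF-SC (0.77, adjusted p = 0.0324).

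The other 22 members had intensities between 4.77 and 69.8, and 0 of them passed in any comparison. The smallest limma adjusted p among them was 0.0739 in HF-TAC against aHF-SC, 0.124 in HF-TAC against qHF-SC and 0.190 in aHF-SC against qHF-SC. The first of these was that of Ccl1, a ligand of Ccr8 chosen for mention after its values were seen. Ccl1 read 69.8 and 28.7 in HF-TAC, against 14.1 and 21.7 in aHF-SC and 27.1 and 17.95 in qHF-SC, and HF-TAC lay above both others. Ccl8, likewise singled out afterwards because mouse bulge keratinocytes are a described source of it, read between 30.8 and 36.0 on all 6 arrays with the groups overlapping.

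In all, 12 members were dim in all 3 groups, at 4.77 to 23.3. Among them were the neutrophil attractants Cxcl2, Cxcl3 and Cxcl5, the eosinophil attractant Ccl11 and the B cell attractant Cxcl13. The other 10 of the 22 lay between 13.9 and 69.8. A low reading is not evidence that a transcript was absent.

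Several members lie side by side in the genome, and neighbours did not all move together. By the RefSeq gene table of GRCm38.p6, Ccl2, Ccl7, Ccl11, Ccl12, Ccl8 and Ccl1 follow each other on chromosome 11 with no other protein-coding gene between them. Of these 6, Ccl2 and Ccl7 passed in at least 1 comparison, in different ones in part, while Ccl11 and Ccl12 were dim throughout. Ccl5, Ccl9, Ccl6, Ccl3 and Ccl4 form another run on chromosome 11, and 0 of the 5 passed. Cxcl3, Cxcl15, Cxcl1 and Cxcl2 form a run on chromosome 5, where 0 of the 4 passed. On chromosome 8, Ccl22, Cx3cl1 and Ccl17 form a run in which only Cx3cl1 passed. Cxcl9 and Cxcl10, near each other on chromosome 5 but not adjacent by this rule, were both higher in HF-TAC than in aHF-SC. Over all 33 members, 9 passed in at least 1 comparison. The share of all genes that did so was not counted, so the counts per run cannot be read as high or low.

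The 2 HF-TAC arrays were less alike in chemokines than the arrays of the other groups. In HF-TAC, 6 of 33 members lay more than 2-fold apart between the replicates, beside 2.5% of all genes, and all 6 were higher in replicate 1: Ccl2 (3.36-fold), Cxcl10 (2.97-fold), Cxcl16 (2.82-fold), Ccl1, Cxcl9 (2.23-fold) and Ccl27a (2.16-fold). In aHF-SC this held for 0 members and 1.18% of all genes. In qHF-SC it held for Cxcl9 and Cxcl11, both higher in replicate 2, and for 1.11% of all genes. HF-TAC replicate 1 also had the higher sum of the upper follicle and sebaceous gland markers and the lower sum of the matrix markers. Its sum over 23 NF-kB genes was 10894, against 7158 in replicate 2, and its sum over 22 interferon-stimulated genes 3149 against 1628. Bright genes weigh most in such sums. The list medians in replicates 1 and 2 were close for the interferon-stimulated genes (38.1 and 35.4) and the upper follicle markers (2224 and 2189). They were 80.9 and 53.2 for the NF-kB genes and 583 and 906 for the matrix markers. The sums over 18 immune markers were close, at 670 and 727 in HF-TAC, 1208 and 1178 in aHF-SC and 1048 and 1089 in qHF-SC. The part of these genes in the chemokine values was not tested.

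**Figure D3:**
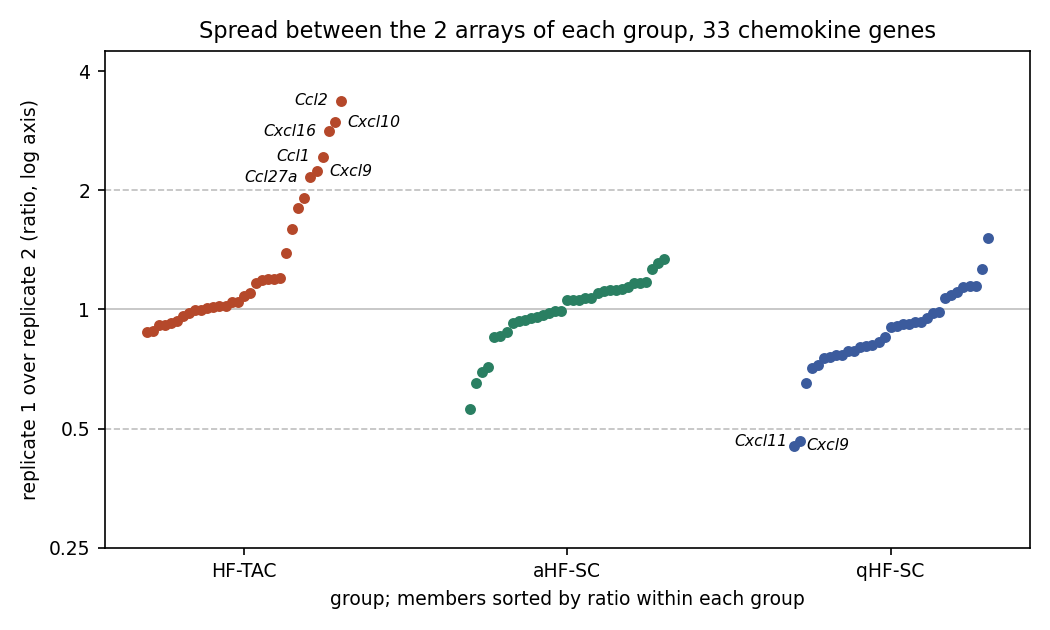
Ratio of replicate 1 to replicate 2 (log axis) for the 33 chemokine genes in HF-TAC, aHF-SC and qHF-SC, sorted within each group, with dashed lines at 2-fold either way. Members beyond 2-fold are named: 6 in HF-TAC, all above the upper line, 0 in aHF-SC and 2 in qHF-SC, both below the lower line.

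Promoters are shown for 5 members that changed, so that the letters near their starts can be read beside the values: Cxcl10, Cxcl9 and Ccl20, which were higher in HF-TAC than in aHF-SC, and Cxcl14 and Cxcl12, which were lower. Each window runs from 250 bases before the start to 50 after it, 5′ to 3′ on the gene's strand, from RefSeq on GRCm38.p6. Windows were matched for 23 of the 33 members. Capitals mark matches, on either strand, to a kappaB-type motif (GGGNNTTCC or GGNNTTTCC, which can match the same bases), the core of the interferon-stimulated response element (GAAANNGAA) and the AP-1 motif (TGANTCA). The windows are chr5:92348840-92349139 for Cxcl10 and chr5:92328030-92328329 for Cxcl9, both on the minus strand, chr1:83116516-83116815 on the plus strand for Ccl20, chr13:56296502-56296801 on the minus strand for Cxcl14, and chr6:117168285-117168584 on the plus strand for Cxcl12.
Cxcl10: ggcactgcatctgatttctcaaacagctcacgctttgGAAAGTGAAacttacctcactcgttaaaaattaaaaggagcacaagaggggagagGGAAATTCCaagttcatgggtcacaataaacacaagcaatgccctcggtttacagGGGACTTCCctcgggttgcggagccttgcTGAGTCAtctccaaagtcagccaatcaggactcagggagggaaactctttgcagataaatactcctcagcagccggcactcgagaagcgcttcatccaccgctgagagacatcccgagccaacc
Cxcl9: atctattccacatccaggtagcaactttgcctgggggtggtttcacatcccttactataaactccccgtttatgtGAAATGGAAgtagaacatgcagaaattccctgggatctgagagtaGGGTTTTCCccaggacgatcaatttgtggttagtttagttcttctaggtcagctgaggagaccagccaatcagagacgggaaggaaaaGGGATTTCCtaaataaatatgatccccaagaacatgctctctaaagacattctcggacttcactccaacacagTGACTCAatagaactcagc
Ccl20: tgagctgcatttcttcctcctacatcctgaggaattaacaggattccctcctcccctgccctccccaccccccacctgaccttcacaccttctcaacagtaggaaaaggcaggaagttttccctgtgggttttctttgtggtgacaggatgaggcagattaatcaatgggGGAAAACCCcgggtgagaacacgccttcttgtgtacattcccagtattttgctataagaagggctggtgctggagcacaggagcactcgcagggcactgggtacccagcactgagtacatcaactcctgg
Cxcl14: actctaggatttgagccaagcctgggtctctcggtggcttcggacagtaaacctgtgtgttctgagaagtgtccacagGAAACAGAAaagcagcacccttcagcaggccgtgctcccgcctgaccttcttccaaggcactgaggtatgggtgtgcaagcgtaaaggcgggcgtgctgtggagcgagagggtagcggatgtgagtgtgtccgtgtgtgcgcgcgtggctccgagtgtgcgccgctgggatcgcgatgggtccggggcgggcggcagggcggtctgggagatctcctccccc
Cxcl12: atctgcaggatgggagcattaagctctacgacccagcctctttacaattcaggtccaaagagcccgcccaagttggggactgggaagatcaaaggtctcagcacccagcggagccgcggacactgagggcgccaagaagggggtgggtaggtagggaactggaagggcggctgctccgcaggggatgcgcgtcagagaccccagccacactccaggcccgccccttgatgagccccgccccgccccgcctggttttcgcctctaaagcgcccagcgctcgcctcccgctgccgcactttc

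Cxcl10 held all 3 motifs: GAAAGTGAA at -213 to -205 from the start, kappaB-type matches at -158 to -150 and -103 to -95, and an AP-1 match at -74 to -68. Cxcl9 held all 3 as well, with GAAATGGAA at -175 to -167, kappaB-type matches at -130 to -122 and -42 to -34, and an AP-1 match at 32 to 38. Ccl20 held a kappaB-type match on the minus strand at -80 to -72. The 5 windows are a selection: Ccl2, also higher in HF-TAC, had no window, and Ccl27a, lower in HF-TAC, had several and is not shown, so they allow no comparison of higher with lower members. Cxcl14 had GAAACAGAA at -172 to -164 and no other match, and Cxcl12 had none of these letters in its window. A match is a description of letters, not of a bound site.

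Among the 23 members with a window, 8 held a kappaB-type motif: Ccl20, Ccl25, Ccl9, Cxcl1, Cxcl2, Cxcl3, Cxcl9 and Cxcl10. It stood in 9.83% of 32851 promoter windows of the genome. Members with several windows were counted once if any window held a motif, while the genome shares are per window. Of the 8, Ccl20, Cxcl9 and Cxcl10 passed in at least 1 comparison, and Cxcl2, Cxcl3 and Ccl9 were dim in all groups. The 9 of all 33 members that passed include Ccl2 and Ccl7, which had no window, so these counts do not compare directly. The interferon element core was in 5 members, Ccl1, Ccl3, Cxcl9, Cxcl10 and Cxcl14, and in 8.56% of all windows. The AP-1 motif was in 5 members, Ccl27a, Ccl28, Ccl9, Cxcl9 and Cxcl10, and in 7.81% of all windows.

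Genes that the same signals are known to act on were read as well. Of 23 NF-kB inhibitors and targets other than chemokines, 4 were higher and 1 lower in HF-TAC than in aHF-SC, with a median log2 difference of 0.11. Against qHF-SC 3 were higher and 1 lower, with a median of 0.11. The calls were 21.7% and 17.4% of the list, beside 17.5% and 26.3% of all genes. Between aHF-SC and qHF-SC limma called 0, while 3 had an unadjusted p under 0.05. Rel, the NF-kB subunit c-Rel, read 80.9 and 52.7 in HF-TAC, against 18.2 and 19.8 in aHF-SC and 20.2 and 17.3 in qHF-SC. HF-TAC lay above the stem cell groups, where Rel was dim. It was 3.43-fold higher than in aHF-SC (limma adjusted p = 0.00237) and 3.50-fold higher than in qHF-SC (0.0012), under all 16 settings. The atypical inhibitor Bcl3 was 2.50-fold higher in HF-TAC than in aHF-SC (limma adjusted p = 0.0129), a call that ended without HF-TAC replicate 1 (0.0555) and without aHF-SC replicate 1 (0.0637). Sod2, the mitochondrial superoxide dismutase, was 1.94-fold higher (limma adjusted p = 0.00631). Nfkbia, the feedback inhibitor and a direct target, read 6536 and 4104 in HF-TAC, against 6421 and 5507 in aHF-SC and 6368 and 7668 in qHF-SC, and did not pass. Ptgs2, the inducible prostaglandin synthase, was 8.54-fold lower in HF-TAC than in qHF-SC (limma adjusted p = 0.00147). The list as a whole therefore had members moving both ways.

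Of 22 interferon-stimulated genes, 1 was higher and 1 lower in HF-TAC than in aHF-SC, and against qHF-SC 0 were higher and 2 lower. Between the stem cell populations 1 was higher in aHF-SC, Irf7 (2.59-fold, limma adjusted p = 0.0228), a transcription factor of the interferon response, and 1 was lower. The Irf7 call held in 11 of 15 settings and ended without either aHF-SC array (0.117 and 0.0675), without qHF-SC replicate 2 (0.105) and with 16 added before the log. Each of these was 9.09% of the list, beside 17.5%, 26.3% and 6.28% of all genes. The median log2 differences were 0.06, 0.10 and -0.10. Gbp2, an interferon-induced GTPase, read 55.2 and 24.2 in HF-TAC, against 6.48 and 9.92 in aHF-SC and 9.59 and 20.6 in qHF-SC. It was dim in both stem cell groups, and 4.56-fold higher in HF-TAC than in aHF-SC (limma adjusted p = 0.0196). That call ended in 5 of 16 settings, where the adjusted p reached 0.100. Usp18, a deubiquitinase that limits interferon signalling, read 21.1 and 17.3 in HF-TAC, against 24.05 and 37.0 in aHF-SC and 100.9 and 147 in qHF-SC. It was 6.39-fold lower in HF-TAC than in qHF-SC (limma adjusted p = 0.000517) and 4.09-fold lower in aHF-SC (0.0105, or 0.0695 without qHF-SC replicate 2). Most of the list did not pass in any comparison.

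Of 22 dissociation stress genes, which respond to tissue handling, 13 were higher and 1 lower in HF-TAC than in qHF-SC, and aHF-SC had 13 higher and 0 lower against qHF-SC. These were 63.6% and 59.1% of the list, beside 26.3% and 6.28% of all genes. In HF-TAC against aHF-SC 0 were higher and 3 lower, which is 13.6% beside 17.5%. There 13 had an unadjusted p under 0.05, and only 4 of the 22 had a log2 difference above 0. The median log2 difference of the list was -0.66 in HF-TAC against aHF-SC. It was 1.26 in HF-TAC against qHF-SC and 1.67 in aHF-SC against qHF-SC. The summed level of the 22 genes was 98695 and 82633 in HF-TAC, against 111090 and 147720 in aHF-SC and 61315 and 51932 in qHF-SC. The sums were thus lowest in qHF-SC and highest in aHF-SC, so all 3 groups differed in them. The part of handling stress in the chemokine values was not tested.

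On the receiving side, 21 of 23 chemokine receptor genes were measured, and 12 or 13 of them lay below the median on each array. In HF-TAC, 3 receptors were lower than in aHF-SC and 4 lower than in qHF-SC, and 0 were higher. These calls were 14.3% and 19% of the receptors, below the 17.5% and 26.3% of all genes. Only Ackr1 was called between aHF-SC and qHF-SC. The median log2 differences over the 21 were -0.10, -0.10 and -0.03. The calls fell on 3 atypical receptors, which bind chemokines without the usual signalling and clear them, and on Cxcr4.

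Ackr3, which scavenges Cxcl12, had an intensity of 212 and 105 in HF-TAC, against 606 and 548 in aHF-SC and 447 and 386 in qHF-SC. HF-TAC lay below both stem cell groups, as it did for its ligand Cxcl12. Ackr3 was 3.87-fold lower than in aHF-SC (log2 difference -1.95 ± 0.31 SE, limma adjusted p = 0.00549) and 2.79-fold lower than in qHF-SC (-1.48 ± 0.31, adjusted p = 0.0112). The second call ended without qHF-SC replicate 1 (0.0686). Cxcr4, the signalling receptor of Cxcl12, read 25.9 and 44.6 in HF-TAC, against 105 and 124 in aHF-SC and 229 and 73.7 in qHF-SC. HF-TAC lay below the others, and the qHF-SC arrays were far apart. It was 3.82-fold lower in HF-TAC than in qHF-SC (limma adjusted p = 0.0264), while the difference from aHF-SC, -1.75 ± 0.50 on the log2 scale, missed the threshold (adjusted p = 0.0527). That difference passed in 7 of 16 settings, with adjusted p between 0.0109 and 0.205 over all of them. The call against qHF-SC ended with 16 added before the log, without qHF-SC replicate 1 and without HF-TAC replicate 1, where the adjusted p reached 0.118.

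Ackr4, a scavenger of the lymph node chemokines and of Ccl25, had an intensity of 73.4 and 44.2 in HF-TAC, against 196 and 217 in aHF-SC and 186 and 249 in qHF-SC. HF-TAC stood below both, and the stem cell groups overlapped in this probe set. Ackr4 was 3.62-fold lower in HF-TAC than in aHF-SC (limma adjusted p = 0.00376) and 3.78-fold lower than in qHF-SC (0.0019), under all 16 settings. Its 3 probe sets disagreed between the stem cell groups. With the 3 averaged, or with the one used left out, aHF-SC was called lower than qHF-SC, with a log2 difference down to -1.33. Ackr1, the Duffy antigen, which binds many inflammatory chemokines, read 64.3 and 57.1 in HF-TAC, against 87.7 and 125 in aHF-SC and 243 and 292 in qHF-SC. No pair of groups overlapped, and the order was the same as for Ccl27a. Ackr1 was 4.39-fold lower in HF-TAC than in qHF-SC (limma adjusted p = 0.000477) and 2.54-fold lower in aHF-SC (0.0158). The second call ended without aHF-SC replicate 1 or qHF-SC replicate 2, where the adjusted p reached 0.118. Its call in HF-TAC against aHF-SC (log2 difference -0.79 ± 0.21 SE, limma adjusted p = 0.042) held in only 6 of 15 settings, and the adjusted p reached 0.202.

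Ccr10, the receptor of Ccl27a, read between 40.2 and 56.3 on all arrays and was not called in any comparison, though HF-TAC (43.5 and 40.8) lay below qHF-SC (46.6 and 44.8). Ccrl2, an atypical receptor that presents chemerin, read between 29.8 and 47.9 and was not called either.

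**Figure D4:**
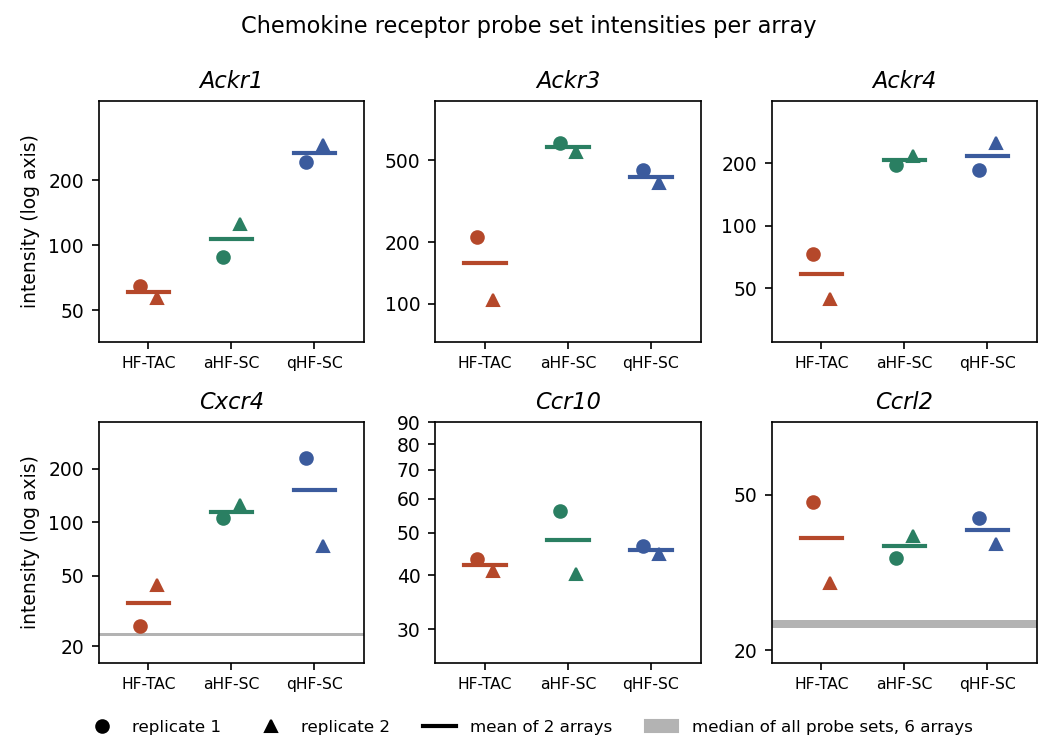
Intensity (log axis, a separate scale for each gene) of the 6 receptor genes with the highest mean over the arrays, in HF-TAC, aHF-SC and qHF-SC, with circles for replicate 1, triangles for replicate 2, lines for the mean and a grey band for the range of array medians. Ackr3 and Ackr4 are lowest on both HF-TAC arrays, Ackr1 is highest in qHF-SC, Ccrl2 overlaps between all groups, and Ccr10 does so except that its HF-TAC arrays lie just below its qHF-SC arrays.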

How the data were processed

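The deposited values are linear intensities of Affymetrix probe sets, and RMA is named in the submitters' processing notes, with the version not given in the sources used here. RMA commonly corrects background, quantile-normalises arrays and compresses dim signals. Cells were sorted by flow cytometry and 2 µg of RNA was labelled per array, per the labels. Of 45101 probe sets, 64 controls were left out, 34945 carried 1 gene symbol in the platform annotation, 932 several and 9160 none. The Entrez identifiers of all 33 members were found in the RefSeq gene table, and 0 symbols changed.

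Intensities were put on the log2 scale. Each gene was read through its single-gene probe set with the highest mean log2 over 6 arrays, with no filter on dim genes. All arrays were fitted in R 4.3.3 by lmFit, contrasts.fit and eBayes of limma 3.58.1 as 3 group means, with 3 residual and 4.25 prior degrees of freedom. Tests were two-sided, adjusted by Benjamini-Hochberg over 18193 genes within each comparison. Folds and SE come from this fit, which was tested on simulated data. The number of arrays limits the precision.

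Members passing in any comparison, and the 10 with the highest mean, are described one by one. From each companion list up to 5 genes with the smallest p are named, and for receptors the 6 with the highest mean; Nfkbia, Ptprc, Cd68 and Krt79 were added after their values were seen. The members and lists were chosen with earlier results of these data known. Alternatives changed the probe set rule, normalization, pseudocount, dim filter, prior, array weights, block and arrays used. The alternative called without cross-hybridising probe sets left out all names ending in _s_at, _x_at or _a_at. Not all of these endings mark cross-hybridisation. Genes absent from an alternative, such as those with only such probe sets, had 15 alternatives, and the others 16.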

Additional observations from a re-analysis of the deposited data

How the results depend on the processing

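Of 1851 single-gene values under the alternatives, 1714 stayed on their side of the threshold, 102 lost the call in the same direction and 33 gained one. The sign changed in 36 values of differences that had not passed, 0 of which passed after the change, and in 2 that had: in HF-TAC against aHF-SC without cross-hybridising probe sets, Nfkbib stood at -0.13 and Rarres2 at 0.087 on the log2 scale, through another probe set. The calls of Cxcl14, Cxcl12, Ccl27a, Cxcl10 and Ccl20 in HF-TAC held in every setting run. Leaving out each array in turn, with the lone array of a group assumed to vary like the others, gave 5 to 9 chemokine calls in HF-TAC against aHF-SC (7 with all arrays), 5 to 9 in HF-TAC against qHF-SC (8; 5 without qHF-SC replicate 1) and 0 to 3 in aHF-SC against qHF-SC (1; 0 without any one array of these groups, 3 without either HF-TAC array). Over all genes the ranges were 1643 to 2786 (3191 with all arrays; lowest without aHF-SC replicate 2), 2893 to 4588 (4790; 3192 and 2893 without qHF-SC replicates 1 and 2) and 124 to 1354 (1142; 303 and 475 without aHF-SC replicates 1 and 2, 637 and 124 without qHF-SC replicates 1 and 2). In aHF-SC against qHF-SC, 16 added before the log left 548 genes and 0 chemokines, and a fit of these 2 groups alone called 3 chemokines. The cause was not tested. The labels do not say that replicate numbers pair samples, and deviations of same-numbered arrays correlated at 0.0838, -0.127 and 0.0615 across genes. A replicate block gave 6, 8 and 0 chemokines and 2836, 4530 and 889 genes in the 3 comparisons. With the HF-TAC numbers crossed, an alternative chosen after seeing the data, HF-TAC against qHF-SC gave 7 chemokines and 4687 genes. Members below the array medians allow no reading of small differences.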

Other observations

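In each comparison most genes that cut or hold chemokines did not pass, and those that did in HF-TAC moved both ways. Dpp4, the peptidase CD26 that trims the ends of chemokines such as Cxcl10 and Cxcl12, had an intensity of 74.1 and 154 in HF-TAC, against 32.8 and 24.1 in aHF-SC and 13.9 and 17.7 in qHF-SC. HF-TAC lay above both stem cell groups. Dpp4 was 3.797-fold higher in HF-TAC than in aHF-SC (limma adjusted p = 0.00898) and 6.79-fold higher than in qHF-SC (0.0012), and the first call ended without aHF-SC replicate 2 (adjusted p = 0.0635). Sdc4, a heparan sulfate proteoglycan of the kind that holds chemokines at the cell surface, read 2305 and 1659 in HF-TAC, against 4019 and 4440 in aHF-SC and 5082 and 6416 in qHF-SC. It was 2.16-fold lower in HF-TAC than in aHF-SC (limma adjusted p = 0.0115) and 2.92-fold lower than in qHF-SC (0.00175), with no overlap between groups, and the first call ended without aHF-SC replicate 2 (0.0723). Of 11 such genes, 1 was higher and 2 lower in HF-TAC than in aHF-SC, 2 higher and 2 lower than in qHF-SC, and 0 passed in aHF-SC against qHF-SC, where 3 had an unadjusted p under 0.05. The calls were 27.3% and 36.4% of the list in the HF-TAC comparisons, beside 17.5% and 26.3% of all genes.

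Of 5 related ligands outside the naming rule, limma called Rarres2, which encodes chemerin, lower in HF-TAC than in aHF-SC, at 46.2 and 44.9 in HF-TAC against 109 and 71.2 in aHF-SC and 51.1 and 70.2 in qHF-SC (adjusted p = 0.0372). That call held in 10 of 16 settings, ended without either HF-TAC array (0.0952 and 0.122) and without aHF-SC replicate 1 (0.159), and turned direction without cross-hybridising probe sets (log2 difference 0.087). Cklf, chemokine-like factor, was 1.55-fold lower in HF-TAC than in qHF-SC (limma adjusted p = 0.0272). That call ended with its probe sets averaged and without names ending in _s_at, _x_at or _a_at. It also ended without HF-TAC replicate 2 (log2 difference -0.55) and without qHF-SC replicate 1 (-0.69) or 2 (-0.58). The other 3 did not pass.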
